A study of Mus musculus with 14 samples.

Results

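Wdfy1 and 5 genes of the TLR3-TRIF pathway, Tlr3, Ticam1, Traf3, Tbk1 and Irf3, were followed through CD11b+ cells of mouse brains after traumatic brain injury (TBI). They are 6 of the 33939 genes in the deposited table and were chosen by symbol, Wdfy1 because its difference between the genotypes was already known. Its genotype values are therefore given as a description without a test.

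CD11b+ microglia and other myeloid cells were isolated with magnetic beads from the lesioned (ipsilateral, IL) and the non-lesioned (contralateral, CL) hemisphere 3 days after TBI. The controls (Ctrl) were Cx3cr1-CreER+/- and the knockouts (cKO) Cx3cr1-CreER+/-;Nhe1flox/flox, all C57BL/6 males of 8 to 12 weeks treated with tamoxifen, so that the Ctrl mice carried the Cre and had received the drug as well. Sequencing gave 4 libraries from each hemisphere of Ctrl and 3 from each hemisphere of cKO, from 8 numbered mice, of which 6 gave both hemispheres, cKO mouse 784 gave IL only and cKO mouse 788 gave CL only. The Cre is driven from Cx3cr1, which resident microglia and part of the blood-derived myeloid cells use, and the CD11b selection keeps both, so each library is a pool. In such a pool, fewer cells that carry a transcript and less transcript per cell cannot be told apart.

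TLR3 is an endosomal receptor for double-stranded RNA and signals through the adaptor TRIF, the product of Ticam1. WDFY1 is an early endosomal protein that binds phosphatidylinositol 3-phosphate and helps to bring TRIF to TLR3 and TLR4. TRIF then engages the ubiquitin ligase TRAF3, which brings in the kinase TBK1, and TBK1 phosphorylates the transcription factor IRF3, which turns on the interferon-beta gene and many interferon-type target genes. In the brain, microglia are among the cells that carry this pathway.

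Promoter sequences are shown for Tlr3, the only one of the 6 genes whose level passed the test in a comparison, and for Ifit1, Isg15 and Rsad2, antiviral target genes of the pathway that hold the interferon-type core described below and rose in the lesioned hemisphere of cKO. Of these 3, Rsad2 alone also rose in Ctrl. They are the 250 bases before the RefSeq start on GRCm38.p6, written 5′ to 3′ on the gene's strand. Tlr3 lies on the minus strand at chr8:45410381-45410630, Ifit1 on the plus strand at chr19:34640639-34640888, Isg15 on the minus strand at chr4:156200819-156201068 and Rsad2 on the minus strand at chr12:26456453-26456702. The GENCODE annotation used for the gene coordinates places Tlr3 at chr8:45395665-45411080. Its start there is farther upstream, and the Tlr3 window lies inside the gene so annotated. Capitals mark a match to a kB-type site of NF-kB in Tlr3, searched as GGG, any 2 bases and TTTCC. In the other sequences they mark matches to the core of an interferon-stimulated response element, searched as GAAA, any 2 bases and GAAA, or either pattern's reverse complement.
Tlr3: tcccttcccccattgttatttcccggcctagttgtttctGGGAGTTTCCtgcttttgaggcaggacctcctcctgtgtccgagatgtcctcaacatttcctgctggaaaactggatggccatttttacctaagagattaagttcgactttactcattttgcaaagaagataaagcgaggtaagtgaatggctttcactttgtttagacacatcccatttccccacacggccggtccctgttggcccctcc
Ifit1: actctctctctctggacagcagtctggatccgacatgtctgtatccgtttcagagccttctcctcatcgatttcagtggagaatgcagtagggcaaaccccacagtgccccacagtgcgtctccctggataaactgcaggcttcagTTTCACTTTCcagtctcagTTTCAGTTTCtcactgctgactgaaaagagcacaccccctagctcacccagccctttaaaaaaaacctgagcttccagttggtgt
Isg15: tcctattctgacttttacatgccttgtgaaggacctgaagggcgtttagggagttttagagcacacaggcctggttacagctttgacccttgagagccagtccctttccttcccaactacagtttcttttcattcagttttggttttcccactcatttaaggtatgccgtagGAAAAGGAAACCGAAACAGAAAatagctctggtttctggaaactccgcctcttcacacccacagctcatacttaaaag
Rsad2: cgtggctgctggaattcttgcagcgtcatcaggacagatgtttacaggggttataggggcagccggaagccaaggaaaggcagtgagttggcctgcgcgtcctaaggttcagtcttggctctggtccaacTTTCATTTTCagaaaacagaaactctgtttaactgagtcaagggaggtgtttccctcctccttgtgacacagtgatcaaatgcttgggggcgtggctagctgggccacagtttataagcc
The capitals in Isg15 hold 3 matches that overlap each other, Ifit1 holds 2 separate matches and Rsad2 holds 1. Both strands were searched, with letters chosen while the sequences were at hand. The interferon-type core was found in 5 of the 10 target genes with a window (Cxcl10, Ifit1, Ifit3, Isg15 and Rsad2), against 2.98% of 32851 promoter windows of this length. Windows were present for 5 of the 6 genes, and none of Tlr3, Ticam1, Traf3, Tbk1 and Irf3 held the interferon-type core in these bases. The kB-type letters were found in Tlr3, 211 bases before the RefSeq start, and in Traf3, 10 bases before the RefSeq start, against 1.41% of all windows. A further pattern, GAGGAAGT, of the myeloid factor PU.1, matched none of these 5 windows and 2.44% of all windows. A match is a run of letters and was not tested as a binding site.

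Each value is the number of reads of a gene per 1e+06 reads assigned to genes (CPM), and the libraries held 12.2 to 41.6 M reads as read from the size of 1 read in the low values, with the fewest in Ctrl IL 3546 and Ctrl CL 3551 (16.1 M). All 84 values of the 6 genes fell within 0.1 of a whole number of reads, from 221 to 5478 reads. In all comparisons, a p that misses the threshold does not show that the groups are alike. Over all libraries, markers of cells that the CD11b selection should remove summed to 80.8 to 193 CPM for oligodendrocytes, 69.5 to 159 CPM for endothelial cells and 22.03 to 96.1 CPM for astrocytes. The sums were 16.2 to 43.4 CPM for B cells, 1.05 to 20.8 CPM for neurons and 1.73 to 8.86 CPM for T and NK cells. The astrocyte sum was 26.4 to 35.2 CPM in Ctrl CL and 41.4 to 79.5 CPM in Ctrl IL.

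Measured per kilobase of exon, the receptor and the kinase were the most abundant of the 6 transcripts in the Ctrl CL libraries. Tbk1 stood at 20.5 ± 0.945 CPM per kb (SD, n = 4) and Tlr3 at 20.2 ± 0.908, which did not differ beyond their spread. Irf3 followed at 16.4 ± 0.568, Ticam1 at 6.92 ± 0.731, Wdfy1 at 3.06 ± 0.471 and Traf3 at 2.27 ± 0.522 CPM per kb, the last 2 with a gap smaller than their summed SDs. In the cKO CL libraries Wdfy1 stood at 16.0 ± 1.37 CPM per kb (n = 3), beside 14.5 ± 1.35 for Irf3 and 26.5 ± 2.39 for Tlr3.

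**Figure D1:**
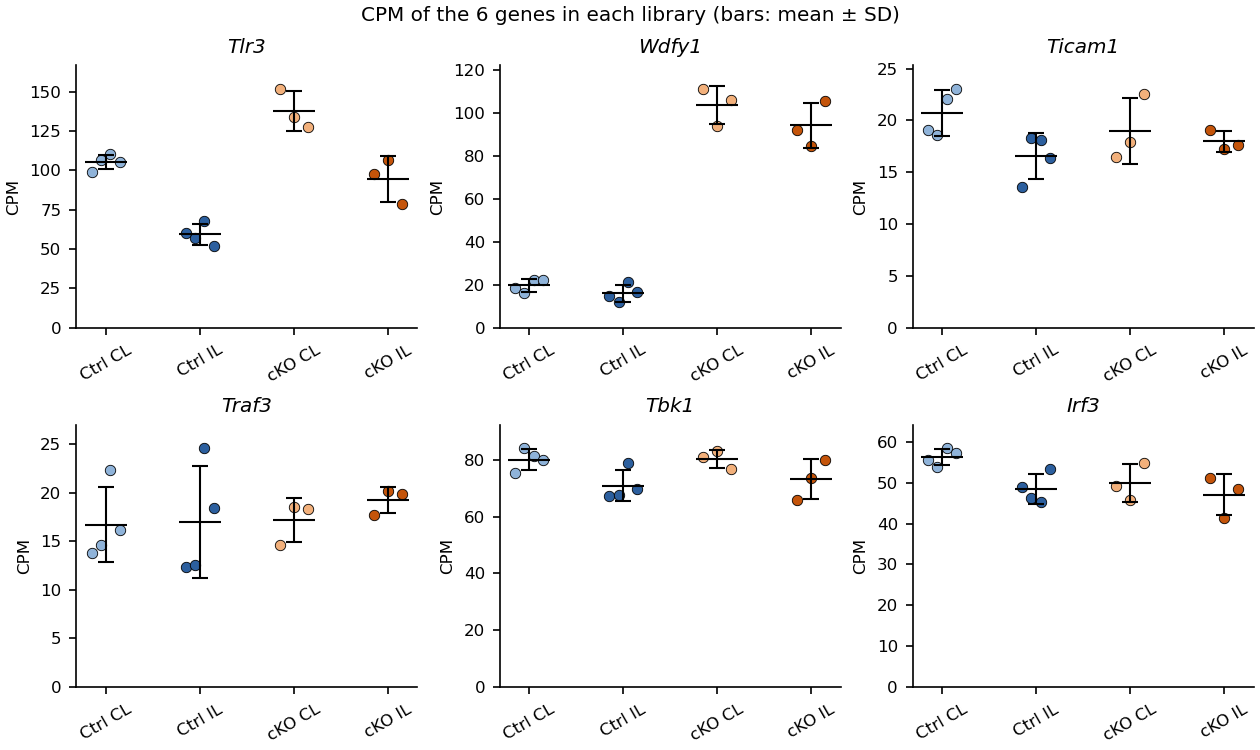
CPM (vertical axis, from 0) of the 6 genes in each library of the 4 groups, 1 point a library, with the mean as a line and the SD as error bars. Wdfy1 lies between 84.8 and 111 CPM in the 6 cKO libraries and between 12.1 and 22.4 CPM in the 8 Ctrl libraries, Tlr3 is lower in IL than in CL, and the other 4 genes have overlapping values between the genotypes.

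Tlr3, the receptor at the head of the pathway (ENSMUSG00000031639, GRCm38 chr8:45395665-45411080, minus strand), was lower in the lesioned than in the non-lesioned hemisphere of the Ctrl mice. In mice 3541, 3545, 3546 and 3551 it stood at 99.1, 107, 110 and 105.0 CPM in CL, and at 60.5, 57.3, 67.7 and 51.8 CPM in IL. Every Ctrl IL library lay below every Ctrl CL library, and within each of the 4 mice the IL value was between 0.493 and 0.612 of the CL value. On the log2(CPM + 1) scale Tlr3 fell by 0.74 (SE 0.13, 95% interval -1.03 to -0.44, limma, adjusted p = 0.0101). Tlr3 shares 381 exonic bases with the antisense gene Gm45542, which has no values in the deposited data. How reads of these bases were counted is not given.

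In the cKO mice Tlr3 stood at 152, 134 and 128 CPM in the CL libraries of mice 788, 791 and 3592, and at 97.8, 107 and 78.7 CPM in the IL libraries of mice 784, 791 and 3592. These groups did not overlap either, and the IL value was 0.798 of the CL value in mouse 791 and 0.617 in mouse 3592. The log2 fold change of -0.48 (SE 0.16) just missed the threshold (limma, adjusted p = 0.0592). Of 13 alternatives it passed in 3, without further scaling of the deposited values (adjusted p = 0.0203), with the mouse as a random effect (adjusted p = 0.0184), and without the cKO CL library of mouse 3592 (log2 fold change -0.55, adjusted p = 0.0485). In the other alternatives the adjusted p reached 0.138 without the filter on low values and 0.162 without the cKO CL library of mouse 788, and the log2 fold change was -0.31 without the cKO IL library of mouse 3592 (adjusted p = 0.144). In a joint fit of the 14 libraries, the difference between the 2 genotypes in this hemisphere effect was 0.22 (SE 0.22, 95% interval -0.24 to 0.69, limma, adjusted p = 0.9997). A difference in either direction was thus not detectable.

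Tlr3 was also above Ctrl in every cKO library of the same hemisphere. The group means were 94.5 ± 14.4 (SD, n = 3) and 59.3 ± 6.63 (n = 4) CPM in IL, and 138 ± 12.4 (n = 3) and 105.3 ± 4.73 (n = 4) CPM in CL. The log2 fold changes were 0.68 (SE 0.16) in IL and 0.43 (SE 0.13) in CL, and neither passed the adjustment over all genes (limma, adjusted p = 0.172 and 0.249). The IL difference passed in 1 of 13 alternatives, in which the 14 libraries were fitted jointly and the mouse entered as a random effect (adjusted p = 0.0493), beside 0.0831 in the joint fit without the mouse. The adjusted p reached 0.283 without the filter on low values and 0.626 without the cKO IL library of mouse 791.

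The summed markers of microglia moved with Tlr3 between the hemispheres. The summed CPM of 8 microglial markers was 32779 to 37510 in Ctrl CL and 18732 to 23412 in Ctrl IL, and the IL sum was 0.542 to 0.624 of the CL sum in the 4 Ctrl mice. It was 33274 to 35682 in cKO CL and 20318 to 22146 in cKO IL, with ratios of 0.580 and 0.633 in the 2 paired cKO mice. Of the 8 markers, 4 fell in Ctrl (Cx3cr1, P2ry12, Tmem119 and Siglech) and 5 in cKO, where Sall1 also fell, beside 7.52% and 23.1% of all genes called. Itgam, also on the list, encodes the CD11b by which all these cells were selected. It did not move with Tlr3, at 0.973 times the CL mean in Ctrl IL and 1.15 times in cKO IL. Markers of infiltrating monocytes summed to 121 to 741 CPM in Ctrl CL and 561 to 864 CPM in Ctrl IL, and to 112 to 316 CPM in cKO CL and 528 to 757 CPM in cKO IL. Neutrophil markers went the other way, from 458 to 6046 CPM in Ctrl CL to 138 to 806 CPM in Ctrl IL, and from 454 to 1294 CPM in cKO CL to 185 to 280 CPM in cKO IL. The part of these cells in the Tlr3 difference was not tested. Between the genotypes, the ranges of the microglial sums overlapped in each hemisphere.

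**Figure D2:**
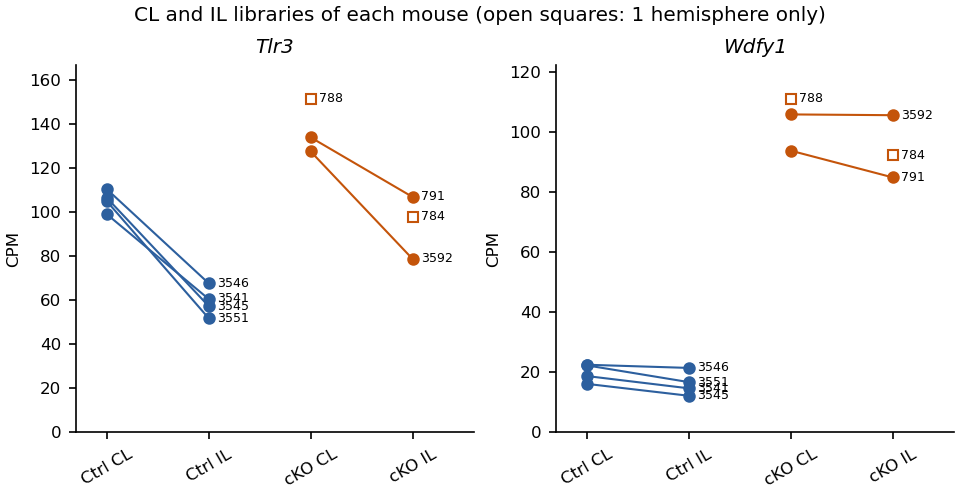
CPM of Tlr3 and Wdfy1 (vertical axes, from 0) in the CL and IL libraries, with a line joining the hemispheres of the same mouse and open squares for the mice that gave 1 hemisphere. The Tlr3 lines descend in all 6 mice, to between 0.493 and 0.798 of the CL value, whereas the Wdfy1 lines are nearly level in the cKO mice, at 0.905 and 0.998.

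Wdfy1 (ENSMUSG00000073643, GRCm38 chr1:79702262-79776143, minus strand) was the gene of the 6 with the widest gap between the genotypes. In the Ctrl CL libraries of mice 3541, 3545, 3546 and 3551 it stood at 18.7, 16.0, 22.4 and 22.2 CPM, and in the Ctrl IL libraries at 14.6, 12.1, 21.4 and 16.6 CPM. The cKO CL libraries of mice 788, 791 and 3592 held 111, 93.7 and 105.8 CPM, and the cKO IL libraries of mice 784, 791 and 3592 held 92.2, 84.8 and 105.5 CPM. The lowest cKO value was thus well above the highest Ctrl value in each hemisphere. Behind these values were 261 to 776 reads in the Ctrl libraries and 2575 to 4012 reads in the cKO libraries.

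The cKO mean of Wdfy1 was 5.83 times the Ctrl mean in IL and 5.22 times in CL. On the log2(CPM + 1) scale the differences were 2.51 (SE 0.15) and 2.39 (SE 0.15), each from a fit of its own hemisphere. In a joint fit of the 14 libraries they differed from each other by 0.11 (SE 0.20). Over the 13 alternatives the genotype differences lay between 2.43 and 2.60 in IL and between 2.30 and 2.44 in CL. Since these values chose the gene, no p is given.

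The hemisphere comparison did not enter that choice. In the deposited values, without further scaling, Wdfy1 was lower in IL than in CL within all 6 paired mice. It stood at 0.749 to 0.953 of the CL value in the 4 Ctrl mice. With scaling and the mouse as a block, its log2 fold change in cKO was 0.0029. The share of all genes lower in IL in every pair is not given. The difference did not pass the test in Ctrl (log2 fold change -0.21, SE 0.17, 95% interval -0.60 to 0.17, limma, adjusted p = 0.545) or in cKO (log2 fold change -0.07, SE 0.10, 95% interval -0.30 to 0.15, adjusted p = 0.636). The libraries of the hemispheres overlapped in both genotypes, and a difference in either direction was not detectable.

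Wdfy1 shares 126 exonic bases with Mrpl44, a mitochondrial ribosomal protein gene that starts 0.1 kb away on the opposite strand. The strand setting of the counting is not given, so reads of these bases may have been counted for either gene, and they are a small part of the 6488 exonic bases of Wdfy1. In contrast to Wdfy1, Mrpl44 had lower means in cKO than in Ctrl, 14.4 against 23.7 CPM in IL (log2 fold change -0.67, SE 0.22, limma, adjusted p = 0.343) and 15.8 against 24.9 CPM in CL (log2 fold change -0.60, SE 0.24, adjusted p = 0.427). The next tested gene beyond the start of Wdfy1, where Mrpl44 also extends, was Serpine2, which encodes an extracellular protease inhibitor and starts 85 kb away. For Serpine2 the values were -0.40 in IL (SE 0.12, adjusted p = 0.266) and -0.43 in CL (SE 0.25, adjusted p = 0.618) on the log2 scale (limma). On the other flank the nearest tested gene was Scg2, a secretogranin gene that starts 336 kb away, with a mean of 0.172 CPM in Ctrl and 0.318 CPM in cKO (log2 fold change 0.19, SE 0.17, limma, adjusted p = 0.867) in IL. Within 2 Mb of the start of Wdfy1, 17 other genes were tested in IL and 13 in CL, and limma called 0 of them, with 2 in each hemisphere at an unadjusted p under 0.05, beside 1550 of 16873 genes tested in IL and 1701 of 16570 in CL. The longest stretch of the Wdfy1 transcripts that matched a transcript of another gene at 90% identity or more was 181 bases, in Gm15823. Matches at this identity, none of them longer, were found in 1775 other genes, and their part in the counts was not tested.

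**Figure D3:**
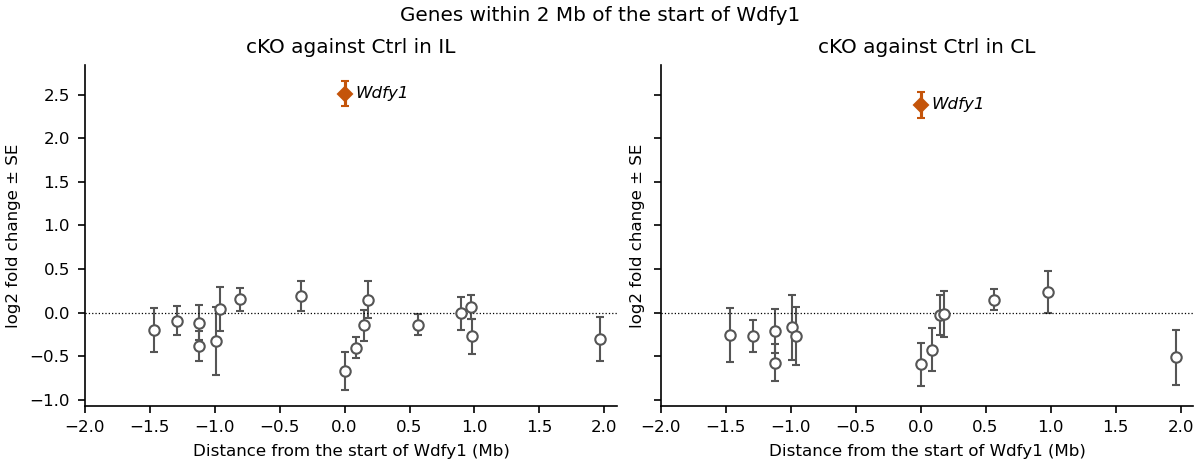
Log2 fold change of cKO against Ctrl (vertical axes, points with SE) of genes within 2 Mb of the start of Wdfy1, by distance in Mb (horizontal axes), in the IL and the CL libraries. Wdfy1 (diamond) stands at 2.51 and 2.39, and the other genes lie between -0.67 and 0.19 in IL and between -0.60 and 0.24 in CL.

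The genes whose pattern over the 14 libraries was most like that of Wdfy1, among 13472 genes with a mean of at least 1 on the log2 scale, were Hist1h2al, Hspb3, Bckdhb, Cap1 and Tmem87a. Their Pearson correlations with Wdfy1 were 0.987, 0.985, 0.975, 0.973 and 0.971, and the 14 points fall into the 2 genotypes, share libraries and mice, and are given without a p. Hspb3, a small heat shock protein gene, averaged 0.146 CPM in Ctrl CL and 0.0435 CPM in Ctrl IL against 23.2 and 11.8 CPM in cKO CL and IL. Cap1, which encodes an actin-binding protein, averaged 81.4 and 96.6 CPM in Ctrl CL and IL against 680 and 770 CPM in cKO CL and IL. The 5 genes most like Tlr3 were Rasgrp3, Slamf8, Evi2a, Arhgap25 and Ptpro, with correlations of 0.977, 0.952, 0.935, 0.933 and 0.928 over the same libraries. The correlation of Tlr3 with Wdfy1 was 0.62.

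The adaptor and the signalling genes below it did not pass the test between the genotypes, and their libraries overlapped in each hemisphere. Ticam1, which encodes TRIF (ENSMUSG00000047123, chr17:56269319-56276786, minus strand), ranged from 13.6 to 23.0 CPM over the Ctrl libraries and from 16.5 to 22.6 CPM over the cKO libraries. Its log2 fold change of cKO against Ctrl was 0.14 (SE 0.14, 95% interval -0.19 to 0.47) in IL and -0.07 (SE 0.16, 95% interval -0.43 to 0.29) in CL, with adjusted p of 0.900 and 0.912 (limma).

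Traf3, the ubiquitin ligase gene (ENSMUSG00000021277, chr12:111166370-111267153, plus strand), ranged from 12.3 to 24.5 CPM in Ctrl and from 14.6 to 20.1 CPM over the cKO libraries. Both ends of the Ctrl range were IL libraries, of mice 3541 and 3546. Between the genotypes the log2 fold change was 0.24 (SE 0.20, 95% interval -0.21 to 0.69) in IL and 0.10 (SE 0.19, 95% interval -0.32 to 0.52) in CL, with adjusted p of 0.835 and 0.892 (limma).

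Tbk1, the kinase gene (ENSMUSG00000020115, chr10:121546455-121586787, minus strand), ranged from 67.3 to 84.0 CPM in Ctrl and from 65.8 to 83.0 CPM over the cKO libraries. Its log2 fold change between the genotypes was 0.06 (SE 0.10, 95% interval -0.17 to 0.29) in IL and 0.06 (SE 0.13, 95% interval -0.23 to 0.34) in CL, with adjusted p of 0.941 and 0.917 (limma). Its direction in CL turned without the filter on low values (-0.022).

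Irf3, the transcription factor gene (ENSMUSG00000003184, chr7:44997648-45002848, plus strand), ranged from 45.2 to 58.4 CPM in Ctrl and from 41.4 to 54.9 CPM over the cKO libraries. Its log2 fold change of cKO against Ctrl was -0.02 (SE 0.13, 95% interval -0.32 to 0.27) in IL and -0.12 (SE 0.13, 95% interval -0.41 to 0.17) in CL, with adjusted p of 0.983 and 0.801 (limma). Irf3 shares 88 exonic bases with Bcl2l12 on the opposite strand, a gene at 4.49 to 10.8 CPM.

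Counted together, 0 of the 5 tested genes were called between the genotypes in IL, where 0.664% of the 16873 genes tested were called, and 0 of 5 in CL, where 0.905% of 16570 were called. At an unadjusted p under 0.05 the count was 1 in each hemisphere, namely Tlr3, beside 1550 of all genes tested in IL and 1701 in CL. Wdfy1 and Tlr3 were the 2 genes without overlap between cKO and Ctrl libraries, higher in cKO in both hemispheres, against 4.85% of all genes without overlap and higher in cKO in IL and 3.98% in CL. For Wdfy1 this is how it was chosen.

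Between the hemispheres, 1 of the 6 genes, Tlr3, was called in Ctrl, where 7.52% of 16376 genes were called, and 0 of 6 in cKO, where 23.1% of 16756 genes were called and 1 of the 6, again Tlr3, had an unadjusted p under 0.05, beside 6226 of the 16756 genes tested. Without further scaling the split of all called genes turned from 685 higher and 546 lower to 625 and 814 in Ctrl, and from 2067 and 1802 to 1647 and 2146 in cKO, and Tlr3 kept its direction. With the mouse as a block, 3349 genes were called in Ctrl, and of the 6 genes again Tlr3 alone (adjusted p = 0.00235). In Ctrl, Tlr3, Ticam1 and Irf3 had every IL library below every CL library, 3 of 6 genes against 11.4% of all genes without overlap and lower in IL, and in cKO this held for 1 of 6 against 24.3%.

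The genes below the receptor gave smaller values. The counts within mice are from the deposited values without further scaling, and the share over all genes is not given. Ticam1 and Irf3 were lower in IL in 4 of 4 Ctrl and 2 of 2 cKO mice, Tbk1 in 4 of 4 and 1 of 2, and Traf3 in 2 of 4 and 0 of 2. None of these 4 genes passed the test in either genotype. In Ctrl the log2 fold change of IL against CL was -0.22 (SE 0.15, adjusted p = 0.434) for Ticam1, 0.07 (SE 0.21, adjusted p = 0.913) for Traf3, -0.09 (SE 0.11, adjusted p = 0.729) for Tbk1 and -0.13 (SE 0.12, adjusted p = 0.618) for Irf3. In cKO the same 4 values lay between -0.07 and 0.22, with adjusted p from 0.252 to 0.993 (limma), and those of Ticam1, Tbk1 and Irf3 turned in direction under alternatives.

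The genotype by hemisphere interaction called 0 of 18476 genes, with 490 at an unadjusted p under 0.05 and 5 called with the mouse as a random effect (limma). None of the 5 tested genes had an unadjusted p under 0.05 there.

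**Figure D4:**
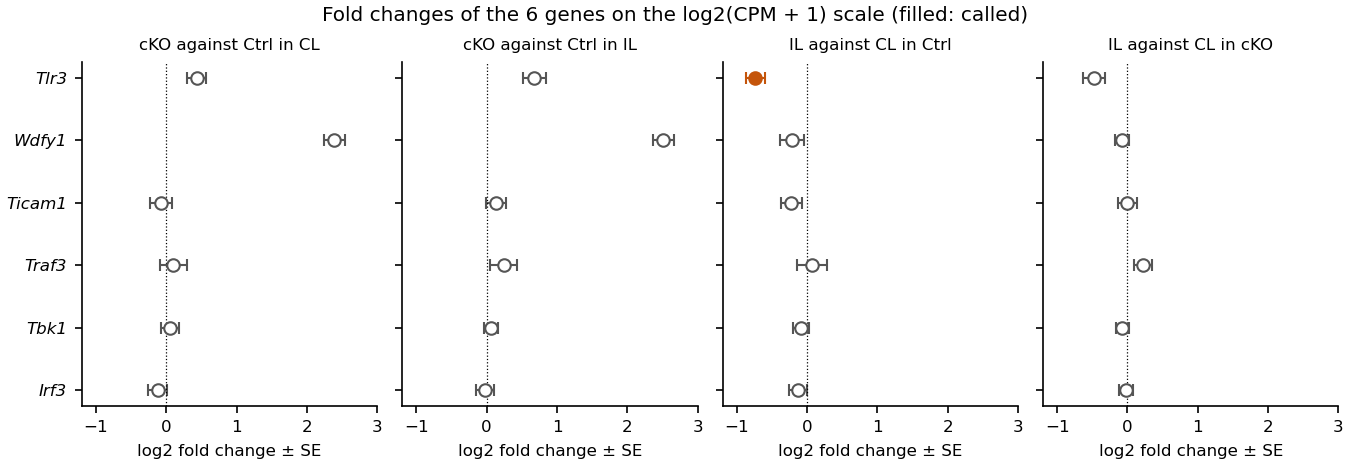
Log2 fold changes on the log2(CPM + 1) scale (horizontal axes, points with SE) of the 6 genes in 4 comparisons, filled where the gene was called. Tlr3 at -0.74 in IL against CL of Ctrl is the filled point, and Wdfy1 at 2.39 and 2.51 between the genotypes, for which no call is given, is the farthest from 0.

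The other genes of the pathway were taken as 72 genes in 8 lists by role, of which 71 were tested. Between the genotypes limma called 0 of 71 in IL and 0 of 71 in CL, with 17 and 7 at an unadjusted p under 0.05, beside 1550 of the 16873 and 1701 of the 16570 genes tested. Between IL and CL, 6 rose and 1 fell in Ctrl, where 7.52% of all genes were called, and 16 rose and 8 fell in cKO, against 23.1%. All 7 genes called in Ctrl were also called in cKO in the same direction, 100% of the first and 29.2% of the second list, from separate libraries. The matching share over all genes called in Ctrl is not given here, so this overlap cannot be read as particular to the pathway.

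Ikbke, which encodes IKK-epsilon, the close relative of TBK1 that also phosphorylates IRF3, had the largest rise of the called pathway genes in Ctrl. It stood at 3.99, 0.953, 2.93 and 1.93 CPM in the Ctrl CL libraries and at 13.5, 15.4, 16.2 and 18.0 CPM in the Ctrl IL libraries. The cKO CL libraries held 1.96, 5.06 and 6.24 CPM and the cKO IL libraries 16.1, 28.0 and 22.4 CPM. IL was above CL without overlap in both genotypes, with log2 fold changes of 2.43 (SE 0.28, adjusted p = 0.00124) and 2.22 (SE 0.34, adjusted p = 0.00468), beside values of Tbk1 of -0.09 and -0.07. Its calls held under every alternative tried.

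In the list of partners of TBK1 and IRF3, which holds 8 genes with Ikbke, 2 rose in Ctrl, against 4.18% of all genes called higher. In cKO 4 rose and 1 fell, against 12.3% of all genes called higher and 23.1% called in either direction. Irf7, the factor that amplifies type I interferon, rose in Ctrl (log2 fold change 1.52, SE 0.38, adjusted p = 0.0418) and in cKO (2.08, SE 0.39, adjusted p = 0.00963). The scaffold gene Tank (0.40, SE 0.10, adjusted p = 0.0287) and the autophagy receptor gene Optn (0.62, SE 0.19, adjusted p = 0.0456) rose in cKO, and the coactivator gene Ep300 fell (-0.51, SE 0.09, adjusted p = 0.00668).

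The 11 target genes, among them cytokine and antiviral genes, had calls in 1 direction between the hemispheres. In Ctrl, 2 of 11 rose, against 4.18% of all genes called higher, Ifit2 (log2 fold change 1.57, SE 0.37, adjusted p = 0.0343) and Rsad2 (1.82, SE 0.40, adjusted p = 0.0258), both antiviral effectors, and the median of the list was 0.90 beside -0.03 over all genes tested. In cKO, 5 of 11 rose, against 12.3% of all genes called higher, and the median was 1.99 beside 0.01 over all genes. These were Ifit1 (2.46, SE 0.48, adjusted p = 0.0111), Ifit2 (2.22, SE 0.53, adjusted p = 0.0214), Ifit3 (2.27, SE 0.51, adjusted p = 0.0173), Isg15 (2.41, SE 0.38, adjusted p = 0.00532) and Rsad2 (2.61, SE 0.55, adjusted p = 0.0135). The summed markers of infiltrating monocytes were also higher in IL, at 2.20 to 5.93 times the CL sum in Ctrl mice 3545, 3546 and 3551 and at 3.78 and 2.40 times in cKO mice 791 and 3592, but at 0.773 times in Ctrl mouse 3541, and the part of these cells in the target genes was not tested. Of these 5 called genes, Ifit1, Ifit3, Isg15 and Rsad2 hold the interferon-type core in the windows described above.

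Isg15, a ubiquitin-like interferon-induced protein, stood at 3.96, 12.05 and 4.14 CPM in the cKO CL libraries of mice 788, 791 and 3592 and at 32.8, 45.0 and 27.5 CPM in the cKO IL libraries of mice 784, 791 and 3592. In Ctrl CL it stood at 6.32, 3.74, 4.41 and 6.41 CPM, and in Ctrl IL at 16.9, 12.3, 2.29 and 16.1 CPM in mice 3541, 3545, 3546 and 3551. The hemispheres of Ctrl overlapped through the low IL value of mouse 3546, and the difference did not pass the test (log2 fold change 0.90, SE 0.52, adjusted p = 0.359).

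Between the genotypes in IL, all 11 target genes had a higher fitted mean in cKO than in Ctrl, from 0.72 to 2.31 on the log2 scale with a median of 1.18 beside 0.02 over all genes, but limma called 0 of 11, with 8 at an unadjusted p under 0.05, beside 1550 of the 16873 genes tested. Tnf, the inflammatory cytokine gene, had the smallest p and just missed the threshold, at 1783 ± 411 CPM (SD, n = 3) in cKO and 736 ± 147 CPM (n = 4) in Ctrl (log2 fold change 1.29, SE 0.23, adjusted p = 0.0545). Ifnb1, the interferon-beta gene itself, was low, at 7.29 ± 4.15 CPM (n = 3) in cKO and 1.72 ± 0.715 CPM (n = 4) in Ctrl (log2 fold change 1.53, SE 0.40, adjusted p = 0.199). In CL, 9 of the 11 had a higher fitted mean in cKO, with 2 at an unadjusted p under 0.05, beside 1701 of the 16570 genes tested, and 0 called.

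Upstream of the adaptor, the list of 7 genes for chaperones and co-receptors had 0 calls in Ctrl, where 7.52% of all genes were called. Cd14 had the smallest p in Ctrl (limma, log2 fold change 1.02, adjusted p = 0.0564). The list had 2 calls in cKO, where 23.1% of all genes were called. There Cd14, a co-receptor of TLR3 and TLR4, rose (1.06, SE 0.25, adjusted p = 0.0192), and Tlr4, the other receptor that uses TRIF, fell (-0.52, SE 0.09, adjusted p = 0.00730). Tlr4 and Tlr3 were thus both lower in IL in cKO, and Tlr3 by a difference that just missed the threshold.

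Of 12 adaptors and kinases next to TRIF, the necroptosis kinase gene Ripk3 rose in Ctrl (log2 fold change 1.05, SE 0.23, adjusted p = 0.0229) and in cKO (0.93, SE 0.19, adjusted p = 0.0128). In cKO the death-domain adaptor gene Tradd rose too (0.56, SE 0.11, adjusted p = 0.0120). The adaptor gene Traf2 (-0.31, SE 0.09, adjusted p = 0.0436), the ubiquitin ligase gene Peli1 (-0.53, SE 0.12, adjusted p = 0.0171) and Tab2, which encodes a partner of the kinase TAK1 (-0.41, SE 0.10, adjusted p = 0.0266), fell. Among 6 genes of the IKK complex and NF-kB, Nfkb1 fell in cKO (-0.66, SE 0.12, adjusted p = 0.00931). That list had no call in Ctrl, where Nfkb1 had the smallest adjusted p (0.0966). Among the 8 tested negative regulators, Tnfaip3, which encodes a ubiquitin-editing enzyme, had the smallest p in Ctrl (limma, adjusted p = 0.239).

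In 10 genes of parallel nucleic acid sensing, Tmem173, which encodes STING, the adaptor of cytosolic DNA sensing, fell in Ctrl (log2 fold change -0.88, SE 0.15, adjusted p = 0.00906) and in cKO (-0.87, SE 0.13, adjusted p = 0.00499). Its mean was 601 ± 72.03 CPM (SD, n = 4) in Ctrl CL and 307 ± 28.2 CPM (n = 4) in Ctrl IL, and 589 ± 60.3 CPM (n = 3) in cKO CL and 308 ± 30.4 CPM (n = 3) in cKO IL. As for Tlr3, this fall went with the lower microglial marker sums in IL given above, and their part in it was not tested. The RNA sensor genes Dhx58 (1.34, SE 0.27, adjusted p = 0.0114) and Eif2ak2 (1.16, SE 0.25, adjusted p = 0.0146), the latter encoding PKR, rose in cKO.

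In the list of 9 relatives of Wdfy1 and genes of phosphatidylinositol 3-phosphate, Eea1, an early endosomal tether that binds the same lipid, rose in Ctrl (log2 fold change 0.76, SE 0.17, adjusted p = 0.0239) and in cKO (0.67, SE 0.10, adjusted p = 0.00456). Wdfy2, the closest relative of Wdfy1, fell in cKO (-0.57, SE 0.09, adjusted p = 0.00522). Between the genotypes limma called 0 of these 9 in either hemisphere, and the values lay between -0.33 and 0.17 in IL and between -0.33 and 0.48 in CL.

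Most of these calls in Ctrl depended on single libraries. Tmem173 was lost only without the filter on low values (adjusted p = 0.0590). Irf7, Ifit2 and Ripk3 were lost without any of Ctrl CL 3545, 3546 and 3551 or Ctrl IL 3541, 3545 and 3551, at adjusted p up to 0.128, 0.113 and 0.0888. Rsad2 was lost without any of the same libraries except Ctrl IL 3551, at up to 0.0871, and Eea1 without Ctrl CL 3541 or 3545 or Ctrl IL 3541, 3545 or 3551, at up to 0.0710. Irf7, Ifit2, Ripk3 and Rsad2 were also lost without the filter on low values, at 0.144, 0.127, 0.0945 and 0.0941, and Eea1 without further scaling, at 0.0600. In cKO, 10 of the 24 calls (Dhx58, Eea1, Ifit1, Ikbke, Irf7, Isg15, Nfkb1, Ripk3, Tlr4 and Tmem173) held under all 13 alternatives. Rsad2, Ifit2 and Ifit3 were lost without cKO IL 784 or 791, at adjusted p up to 0.0524, 0.0804 and 0.0674. Cd14 was lost without cKO CL 788 or cKO IL 784 or 791, at up to 0.0738, and Tank without the same libraries, at up to 0.109. Tradd was lost without cKO IL 784 or 791, at up to 0.0539, Eif2ak2 without cKO IL 784 or 3592, at up to 0.0542, and Peli1 without cKO CL 788, at 0.0526. Traf2 was lost without any of the 6 libraries, at up to 0.156, Tab2 without any but cKO CL 791, at up to 0.0989, and Optn without any but cKO IL 3592, at up to 0.148. In the joint fit of the 14 libraries Optn, Wdfy2, Ep300, Traf2, Tank, Tradd, Tab2 and Cd14 were lost, at 0.243, 0.234, 0.223, 0.206, 0.199, 0.129, 0.0940 and 0.0567. When the mouse entered as a random effect, Ep300, Wdfy2, Traf2 and Tank were lost, at 0.0599, 0.0622, 0.0873 and 0.0753. Without the filter on low values Traf2, Optn, Tab2, Tank, Ifit2 and Peli1 were lost, at 0.0935, 0.0876, 0.0584, 0.0533, 0.0508 and 0.0502. Traf2, Tab2, Tank and Tradd were also lost with the mouse as a block, at 0.255, 0.0727, 0.145 and 0.0745.

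**Figure D5:**
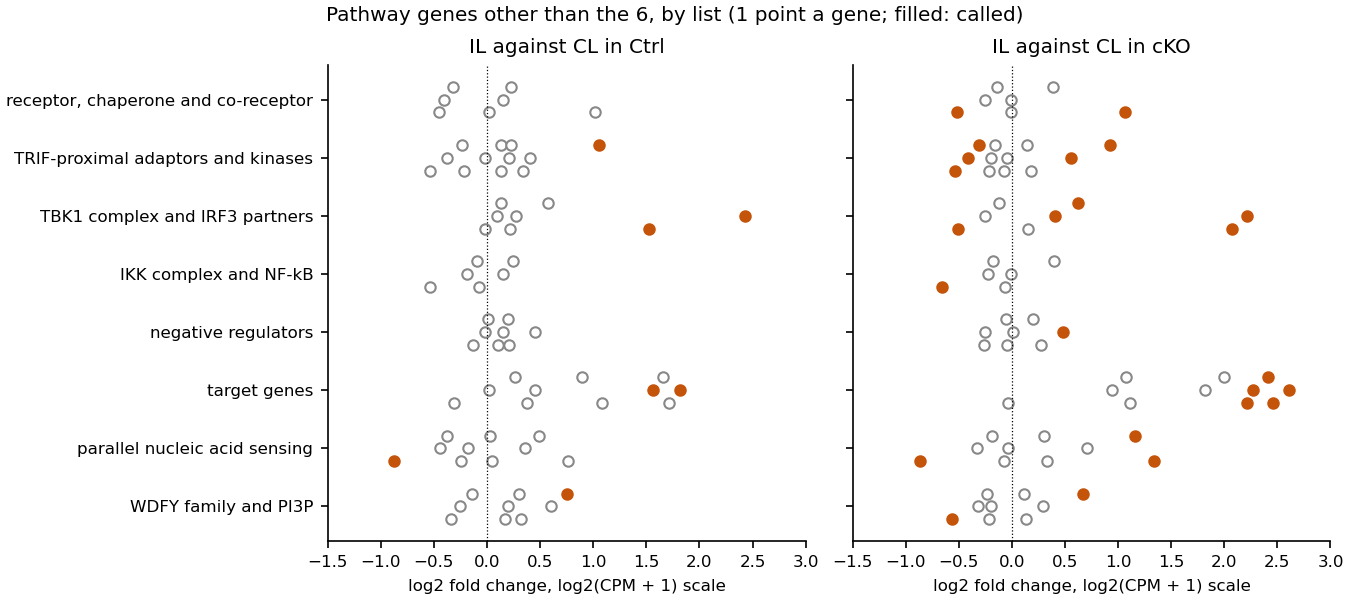
Log2 fold change of IL against CL (horizontal axes, log2(CPM + 1) scale) of the 71 tested pathway genes by list, 1 point a gene, in Ctrl and in cKO, filled where called. In cKO the filled target genes lie between 2.22 and 2.61, and Ikbke, at 2.43 and 2.22, is the rightmost point of the TBK1 complex and IRF3 partners in both panels.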

How the data were processed

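Libraries of MACS-isolated CD11b+ cells were made with the Smart Seq v4 kit. The authors mapped the reads to mm10 (GRCm38) with STAR, and the submitters' processing notes also name Partek 8.0. The table deposited by the authors is named raw counts, but each of its 14 libraries sums to 1e+06, so the deposited values are CPM. Between 79.0% and 83.6% of the values under 100 reads were whole multiples of 1 read (tolerance 0.03), too few for a count test. The strand setting is not given in the sources used here. The authors' own comparison tables, with p-values, fold changes and group means, were not used.

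Values were divided by trimmed-mean factors (30% of M-values and 5% of A-values trimmed, unweighted) and tested as log2(CPM + 1) with limma 3.58.1 in R 4.3.3 (statmod 1.5.0), with empirical Bayes moderation and a trend. Fold changes on this scale understate those of low genes. A gene was tested when its value reached that of 10 reads, at the median depth, in at least the number of libraries in the smaller group. The libraries of the comparison also had to give 15 reads or more in sum. A gene was called at a Benjamini-Hochberg adjusted p of at most 0.05 over all genes tested and a fold change of at least 1.2. Intervals of 95% are limma's and unadjusted. The fit was tested on simulated data.

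The members and lists were chosen with earlier results of these data known. The text names the 6 genes, pathway genes called in any comparison, otherwise the gene of smallest p, the nearest tested neighbours of Wdfy1 and genes called within 2 Mb, and the 5 genes most correlated with Wdfy1 and Tlr3. Other pathway and target genes were named after their values were seen.

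Mice 784 and 788 were taken as different, as labelled. The hemispheres of a mouse share its number: deviations from group means correlated at 0.215 to 0.629 in 6 same-mouse pairs, against -0.578 to 0.528 (median -0.257) in 19 other pairs. The pair of 784 IL and 788 CL, counted among the others, gave 0.218, beside 0.215 for mouse 791. The mouse numbers were therefore used as a block in an alternative. Coordinates are from GENCODE M21 (33802 of the genes matched), copies were sought with blastn 2.17.0, and promoter sequences are from RefSeq. Python 3.11.15, numpy 2.4.6, pandas 2.3.3 and matplotlib 3.10.9 did the rest. All 72 pathway symbols matched. Some values are not reported here, although the counts over lists include them.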

Additional observations from a re-analysis of the deposited data

Results flagged for a closer look

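Among 62 groups of 4 Ctrl libraries examined for 31 genes, 5 held a library far from the other 3 by Dixon's ratio of gap to range, where chance gives about 1 in 20. None of them belonged to the 6 genes of the pathway's main line. Ctrl CL 3541 was the high library for 4 genes of the interferon-type response. Irf7 stood at 48.2 CPM there and at 13.6 to 17.1 CPM in the other 3 Ctrl CL libraries, Ifit2 at 47.6 against 16.3 to 17.9 CPM, Rsad2 at 21.997 against 5.91 to 8.05 CPM, and Dhx58 at 40.0 against 21.5 to 23.5 CPM. The same library held the highest summed neutrophil markers, 6046 CPM, and the highest summed infiltrating monocyte markers of the Ctrl CL libraries, 741 CPM against 121 to 383 CPM in the other 3, and the part of these cells was not tested. Nfkb1 stood at 165 CPM in Ctrl CL 3546 and at 106 to 112 CPM in the other 3.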

How the results depend on the processing

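The fall of Tlr3 in Ctrl IL was called under all 15 alternatives (-0.82 to -0.64), and Wdfy1 kept its genotype difference (2.43 to 2.60 in IL, 2.30 to 2.44 in CL).

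Counts of called genes moved. With no filter on low values, 66 genes were called between the genotypes in IL, 78 in CL, 545 between hemispheres in Ctrl and 2507 in cKO. With all libraries in a single fit the counts were 169, 277, 2055 and 1567. With the mouse as a random effect they were 188, 296 and 4414, and 5 for the interaction, and with the mouse as a block 3349 in Ctrl and 2936 in cKO. Leaving out 1 library gave 44 (without cKO IL 784) to 294 (without Ctrl IL 3546) in IL, 67 to 161 in CL, 572 to 1662 in Ctrl, 1960 to 3630 in cKO and 0 to 1 for the interaction.

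Small differences turned in direction, none of them called. Without the filter Tbk1 was -0.022 between the genotypes in CL and Ticam1 0.0022 between hemispheres in cKO. Without further scaling Traf3 was -0.0090 between hemispheres in Ctrl. With the mouse as a block Wdfy1 was 0.0029 and Tbk1 0.021 between hemispheres in cKO. The interaction of Tbk1 was 0.041 without scaling, 0.057 without the filter and 0.022 with the random effect. Leaving out 1 library, the ranges were -0.083 to 0.040 for Irf3, -0.12 to 0.0015 for Tbk1 and -0.073 to 0.11 for Ticam1 between hemispheres in cKO, -0.079 to 0.19 for Traf3 in Ctrl, -0.10 to 0.036 for Irf3 between genotypes in IL, and, for the interaction, -0.0071 to 0.13 for Irf3, -0.069 to 0.055 for Tbk1 and -0.0029 to 0.25 for Traf3. The causes were not tested. The block changed no call of the 6 genes. Of the pathway genes called in the report, it ended in cKO the calls of Traf2, Tab2, Tank and Tradd and no other, and calls gained among the remaining pathway genes were not examined. With 3 or 4 libraries a group, differences of the size seen for Ticam1, Traf3, Tbk1 and Irf3 were not detectable.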
